A study of Mus musculus with 6 samples.

Results

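The 10 genes described here encode enzymes that make leukotrienes and prostaglandins from arachidonic acid, and they were chosen by name from the known pathway. They are Pla2g4a, Alox5, Alox5ap, Ltc4s, Lta4h, Ptgs1, Ptgs2, Hpgds, Tbxas1 and Ptges, 10 of 35297 genes to which the transcripts of the data were assigned. RNA was sequenced on day 20 of culture from bone marrow-derived mast cells (BMMCs) of wild type, naive mice of the strains BALB/c and C57BL/6, with 3 libraries per strain, named S9, S10 and S11 for BALB/c and S12, S13 and S14 for C57BL/6. All cultures of both strains were grown in IL-3, IL-9, TGF-β1 and stem cell factor, and no group was stimulated through the IgE receptor or treated with an allergen. The study called the 3 libraries of a strain biological replicates, but the sources used here do not say whether each came from its own mouse and give age and sex for the mice treated in vivo but not for the bone marrow donors, so the p-values measure the spread between these libraries. The comparison asked which of these enzymes differed in transcript level between BMMCs of the 2 strains that were not stimulated through the IgE receptor.

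Eicosanoids are short-lived lipid mediators made on demand. Cytosolic phospholipase A2 frees arachidonic acid from membrane phospholipids, and the acid then enters one of a pair of branches. In the leukotriene branch, 5-lipoxygenase with its partner protein FLAP makes leukotriene A4, which leukotriene C4 synthase turns into the cysteinyl leukotrienes and leukotriene A4 hydrolase turns into leukotriene B4. In the prostaglandin branch, the cyclooxygenases COX-1 and COX-2 make prostaglandin H2, which terminal synthases turn into prostaglandin D2, prostaglandin E2 or thromboxane A2. Activated mast cells are known above all for leukotriene C4 and prostaglandin D2.

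BMMCs of C57BL/6 mice had far more Ptgs2 transcript (COX-2), which was 43.3-fold higher than in BALB/c BMMCs, and 3.55-fold more Ptgs1 transcript (COX-1). Smaller differences in the same direction were seen for Lta4h, Hpgds, Alox5ap and Pla2g4a, at between 1.27-fold and 1.82-fold. Alox5, among the most abundant of these transcripts in both strains, was at the same level in both strains when scaled by edgeR, and was called lower in C57BL/6 by -0.14 to -0.18 on the log2 scale with plain library sizes or in TPM. Ptges, the inducible prostaglandin E2 synthase, was at or near background in every library with between 1 and 7 reads. The values given for each library are CPM, reads scaled to a common total with the library sizes corrected by edgeR's TMM factors, and the fold changes are those of C57BL/6 over BALB/c from edgeR's quasi-likelihood test fitted on 12461 genes with Benjamini-Hochberg adjustment over all of them.

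Of the 10 enzymes, 9 had enough reads to be tested, and Ptges had not. At an adjusted p under 0.05 and a fold change above 2, 2 of the 9 were higher in C57BL/6 BMMCs and 0 were lower, against 7.73% of all genes tested that were called higher and 5.54% called lower by the same rule. At an adjusted p under 0.05 and any fold, 8 of the 9 were higher, where 27.0% of all genes tested were, and 0 were lower, where 25.9% were. With plain library sizes or in TPM, 6 were called higher and Alox5 lower, without Ltc4s and Tbxas1. In CPM, the same 8 enzymes had every C57BL/6 library above every BALB/c library, as had 31.1% of all genes tested. In TPM, the libraries of the strains overlapped for Ltc4s and Tbxas1, and for Alox5 every C57BL/6 library was below every BALB/c library. The median log2 fold change of the 9 enzymes was 0.72 and that of all genes tested was -0.01. In bulk RNA, a larger share of cells that carry a transcript and more transcript in each cell cannot be told apart.

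**Figure D1:**
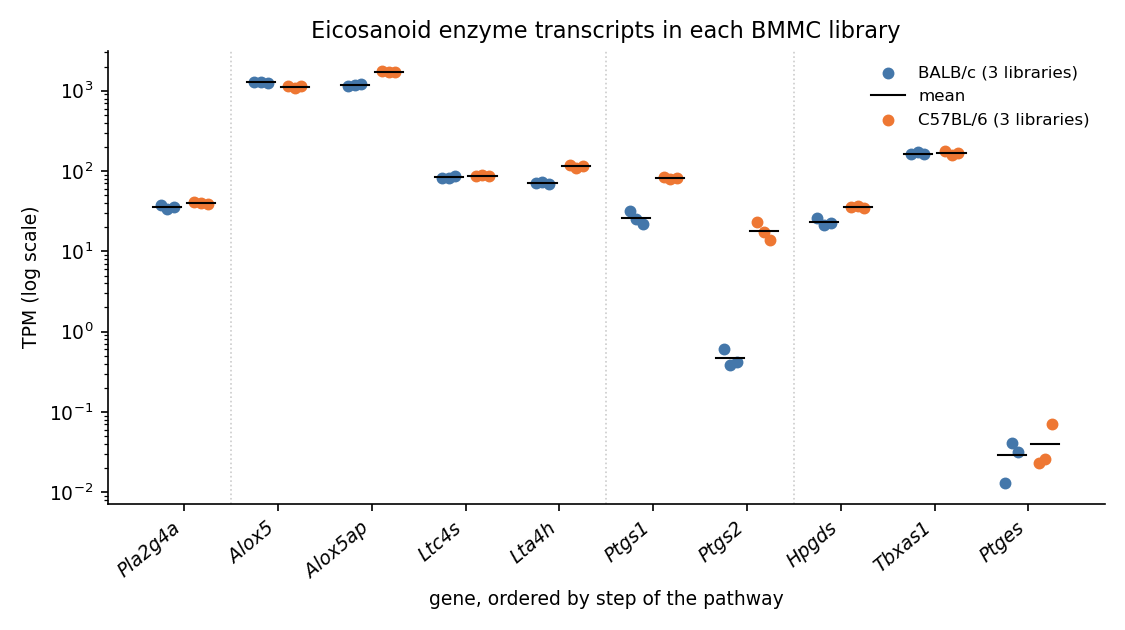
Level of each enzyme in TPM (reads divided by transcript length and scaled to a common total, log axis) in the 3 BALB/c libraries (blue) and the 3 C57BL/6 libraries (orange), with black bars for the mean of each strain, and dotted lines between the phospholipase, the leukotriene branch, the cyclooxygenases and the terminal synthases. The 3 BALB/c libraries have Ptgs2 between 0.388 and 0.609 TPM and the 3 C57BL/6 libraries between 13.9 and 23.1 TPM.

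The cyclooxygenases held the largest differences, and their genes lie on separate chromosomes. On GRCm39, Ptgs2 spans chr1:149975194-149983978 on the plus strand and Ptgs1 spans chr2:36120438-36142287 on the plus strand. Of the promoter windows that RefSeq's table of GRCm38.p6 holds (250 bases before to 50 after the annotated start), 10 belong to 9 of these enzymes, and all 10 were found once, without mismatch, in GRCm39. They are shown for the 2 cyclooxygenases, the only enzymes past both thresholds. Both strands of each window were searched for 6 motifs. The E-box was searched as CACGTG. The core of a cyclic AMP response element was searched as ACGTCA. A C/EBP-like site was searched as TTGCNNAA. GATA sites were searched as AGATAA or with another first base as TGATAA. The TATA box was searched as TATAAA. In the Ptgs2 window, 3 matches were found, and the sites are printed with the matched letters in capitals. The first, at chr1:149975705-149975728, holds the C/EBP-like match, and the second, at chr1:149975786-149975811, holds the cyclic AMP response element core and the E-box, which overlap.
Ptgs2 C/EBP-like site: tgcggttcTTGCGCAActcactga
Ptgs2 response element and E-box site: tcaccactACGTCACGTGgagtccgc

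In GENCODE, transcripts of Ptgs2 start upstream of both sites, so only these short stretches are given. Among all 32851 promoter windows of this length in the table, 10.8% hold the C/EBP-like motif, 7.51% hold the response element core and 7.15% hold the E-box. In the Ptgs1 window none of the 6 motifs was found, which says only that these letters are not in this window. The bases before the Ptgs1 start are those of chr2:36120188-36120437, in lower case because no motif matched.
Ptgs1 upstream: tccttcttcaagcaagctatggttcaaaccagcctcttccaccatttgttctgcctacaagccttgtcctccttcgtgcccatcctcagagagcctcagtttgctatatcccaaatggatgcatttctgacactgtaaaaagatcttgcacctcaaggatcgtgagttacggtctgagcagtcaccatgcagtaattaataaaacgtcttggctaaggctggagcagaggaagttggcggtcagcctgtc

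Among the other enzymes' windows, matches were found for Pla2g4a (TGATAA and TATA), Hpgds (C/EBP-like) and Tbxas1 (TATA). The windows of Alox5, Ltc4s, Lta4h and Ptges held none. The Pla2g4a matches lie in a window inside the gene, chr1:149798141-149798440. Its other window, at the GENCODE start (chr1:149836992-149837291), held none. The Tbxas1 window, chr6:38895670-38895969, also lies inside the GENCODE span of its gene. Of all promoter windows, 9.05% hold TGATAA and 13.6% hold TATAAA. The motifs are a description of the reference sequence, which is that of C57BL/6J, and the sequence of the BALB/c strain was not analysed here.

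Ptgs2, the cyclooxygenase known for its rapid induction in activated cells, was covered by 58, 35 and 48 reads in BALB/c BMMCs, against 2477, 1642 and 1674 reads in C57BL/6 BMMCs. In CPM these were 1.82, 1.17 and 1.28 compared to 77.5, 60.7 and 47.3. The strains did not overlap, and the lowest C57BL/6 library was far above the highest BALB/c library. The log2 fold change was 5.44 (SE 0.23, 95% interval 4.91 to 5.97, edgeR adjusted p = 1.76e-07). Within C57BL/6, the mean was 61.8 CPM ± 15.1 (SD, n = 3), a coefficient of variation of 24.5%, which was the highest of the 9 tested enzymes. Leaving out 1 library at a time gave between 5.24 and 5.64, and the scale of log2(TPM + 1), which compresses low values, gave 3.67. A single transcript of Ptgs2 was listed, so the gene's value is that of this transcript. The antisense gene Ptgs2os, which overlaps the first bases of Ptgs2, had 0 reads in 5 libraries and 2 reads in S12, and the libraries were prepared with a kit that keeps the strand.

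Ptgs1, the constitutive cyclooxygenase, was covered by 1894, 1436 and 1595 reads in BALB/c BMMCs, at 59.5, 48.2 and 42.4 CPM, and by 5751, 4802 and 6202 reads in C57BL/6 BMMCs, at a mean of 178 CPM. Here too the strains did not overlap, and the spread was wider among the BALB/c libraries (SD 8.68 CPM) than among the C57BL/6 libraries (SD 2.39 CPM, n = 3 each). The log2 fold change was 1.83 (SE 0.10, edgeR adjusted p = 8.71e-07). The reference transcript on which most of the gene's reads were placed held 98.8% of its TPM in BALB/c and 99.0% in C57BL/6.

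The balance between the 2 cyclooxygenases can be read within each library from TPM, in which reads are divided by transcript length. Ptgs1 was the more abundant cyclooxygenase in all 6 libraries. The ratio of Ptgs2 to Ptgs1 was 0.0192, 0.0153 and 0.0190 in BALB/c BMMCs. It was 0.271, 0.215 and 0.170 in C57BL/6 BMMCs. The log2 ratio was higher by 3.60 in C57BL/6 (exact permutation test, two-sided, p = 0.1, and 0.1 after adjustment over the 3 ratios computed). This is the smallest p that 3 against 3 libraries can give, so none of the 3 ratios could reach 0.05.

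**Figure D2:**
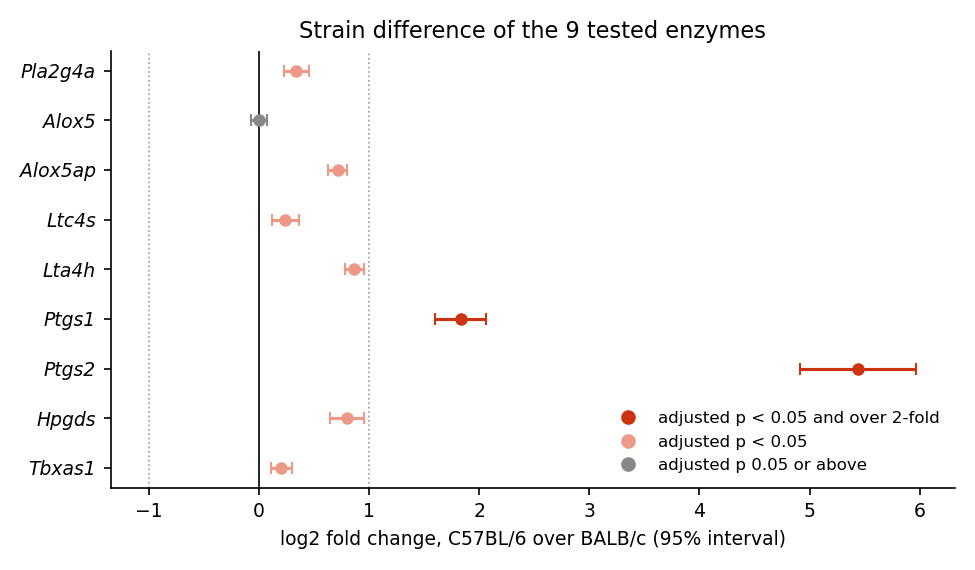
Log2 fold change of the 9 tested enzymes, C57BL/6 over BALB/c, with 95% intervals from edgeR's fit. Dotted lines mark 2-fold changes. Ptgs2 at 5.44 and Ptgs1 at 1.83 lie beyond the line, Alox5 lies at 0.00 and the other 6 lie between 0.20 and 0.86.

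Pla2g4a, the cytosolic phospholipase A2 that feeds both branches, lies at chr1:149705369-149837053 on the minus strand, 138140 bases from Ptgs2. Its level was 70.0, 62.8 and 68.5 CPM in BALB/c and 85.1, 87.8 and 82.3 CPM in C57BL/6 BMMCs. The strains did not overlap, but the difference was small, with a log2 fold change of 0.34 (SE 0.05, edgeR adjusted p = 0.000363) that fell to 0.20 with plain library sizes and to 0.16 in TPM, with adjusted p between 0.00602 and 0.0252. The neighbours thus differed by unlike amounts between strains, 0.34 for Pla2g4a and 5.44 for Ptgs2 on the log2 scale.

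In the leukotriene branch, Alox5 (5-lipoxygenase, chr6:116387032-116438139, minus strand) was at 2364, 2413 and 2367 CPM in BALB/c and at 2393, 2366 and 2385 CPM in C57BL/6 BMMCs. The libraries of the strains overlapped in CPM, and the log2 fold change was 0.00 with a 95% interval of -0.07 to 0.07 (edgeR adjusted p = 0.999). The scalings that gave Alox5 a log2 fold change of -0.14 to -0.18 (adjusted p between 0.00363 and 0.00425) also moved the median of all genes, to between -0.15 and -0.18.

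Alox5ap encodes FLAP, the membrane protein that presents arachidonic acid to 5-lipoxygenase, and lies at chr5:149196003-149227762 on the plus strand. It was at 666, 699.7 and 717 CPM in BALB/c and at 1139, 1157 and 1125 CPM in C57BL/6 BMMCs. The strains did not overlap, and the log2 fold change was 0.72 (SE 0.04, edgeR adjusted p = 6.24e-07). The order of Alox5 and Alox5ap per transcript length differed between the strains. In BALB/c, Alox5 at 1271 TPM ± 25.1 was above Alox5ap at 1181 TPM ± 26.8, and in C57BL/6, Alox5ap at 1713 TPM ± 26.3 was above Alox5 at 1123 TPM ± 33.3 (SD, n = 3 each), with no overlap between the genes in either strain.

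The enzymes that use leukotriene A4 are Ltc4s (chr11:50127288-50129443, minus strand), which leads to the cysteinyl leukotrienes, and Lta4h (chr10:93289210-93320749, plus strand), which leads to leukotriene B4. Lta4h was at 91.9, 96.4 and 93.6 CPM in BALB/c and at 173, 169 and 170.2 CPM in C57BL/6 BMMCs. The log2 fold change was 0.86 (SE 0.04, edgeR adjusted p = 1.77e-07). Ltc4s was at 26.9, 27.8 and 29.3 CPM compared to 32.5, 34.2 and 32.8 CPM. In both cases the C57BL/6 libraries were all above the BALB/c libraries in CPM, whereas in TPM those of Ltc4s overlapped. For Ltc4s the log2 fold change was only 0.24 (SE 0.05, edgeR adjusted p = 0.00379), and the call was lost with plain library sizes (0.10) and on the TPM scale (0.07), with adjusted p between 0.121 and 0.139.

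The ratio of Ltc4s to Lta4h in TPM was 1.16, 1.14 and 1.25 in BALB/c BMMCs. It was 0.746, 0.810 and 0.758 in C57BL/6 BMMCs. Thus Ltc4s was the more abundant transcript of this pair in each BALB/c library and Lta4h in each C57BL/6 library. The log2 ratio was lower by 0.62 in C57BL/6 (means 0.24 and -0.37, difference -0.62, exact permutation test, two-sided, p = 0.1). An antisense gene, Gm26542, shares 17.8% of the 31-base words of Ltc4s, the largest share for any of the 10 enzymes. For 7 of the 10 enzymes a gene shared over 1% of the words, in each case a gene on the opposite strand, and for Hpgds this was a pseudogene.

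Among the terminal synthases, Hpgds (hematopoietic prostaglandin D2 synthase, chr6:65094001-65121983, minus strand) was at 57.1, 46.9 and 50.3 CPM in BALB/c and at 88.3, 93.6 and 86.4 CPM in C57BL/6 BMMCs. The strains did not overlap, and the log2 fold change was 0.80 (SE 0.07, edgeR adjusted p = 1.36e-05). Tbxas1 (thromboxane A synthase, chr6:38852203-39061523, plus strand) was at 198, 211 and 202 CPM compared to 244, 226 and 233 CPM. Its log2 fold change of 0.20 (SE 0.04, edgeR adjusted p = 0.00355) was the smallest that passed the test, and it was 0.06 with plain library sizes and 0.02 on the TPM scale, with adjusted p between 0.299 and 0.786. With curated transcripts only, it was 0.34 (adjusted p = 0.0208). Ptges (chr2:30779483-30820196, minus strand) had 1, 3 and 3 reads in BALB/c and 2, 2 and 7 reads in C57BL/6 BMMCs, too few for a comparison at this depth.

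Tbxas1 was the most abundant terminal synthase in every library by TPM. Hpgds made up 13.9%, 11.1% and 12.2% of the summed TPM of Hpgds, Tbxas1 and Ptges in BALB/c, against 16.9%, 18.9% and 17.2% in C57BL/6 BMMCs. The libraries did not overlap, and the share was 5.29 percentage points higher in C57BL/6 (exact permutation test, two-sided, p = 0.1).

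The reads of most of these genes fell on 1 transcript, and 30 transcripts were listed for the 10 enzymes. Salmon's estimate gave the leading transcript 97.6% of Alox5ap in BALB/c and 97.4% in C57BL/6, 95.4% and 91.6% of Ltc4s, and 92.4% and 88.2% of Lta4h. Tbxas1 was split more widely. Its leading transcript of 1992 bases held 59.7% ± 5.91 of the gene's TPM in BALB/c and 65.8% ± 1.11 in C57BL/6, and a predicted one of 1837 bases held 17.0% ± 4.88 and 10.3% ± 1.30 (SD, n = 3 each). The leading transcript's share was higher in S10 (66.5%) than in the other BALB/c libraries (56.2% and 56.3%) and thus within the C57BL/6 range of 65.1% to 67.1%.

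By mean TPM, the order in BALB/c below Alox5 and Alox5ap was Tbxas1 (165 TPM), Ltc4s (83.6 TPM), Lta4h (70.6 TPM), Pla2g4a (35.5 TPM), Ptgs1 (26.3 TPM), Hpgds (23.3 TPM), Ptgs2 (0.470 TPM) and Ptges (0.0287 TPM). Of the neighbours in this order, only Ptgs1 and Hpgds overlapped in their ranges over the 3 libraries. In C57BL/6 the order below Alox5ap and Alox5 was Tbxas1 (167 TPM), Lta4h (114 TPM), Ltc4s (87.6 TPM), Ptgs1 (82.4 TPM), Pla2g4a (39.7 TPM), Hpgds (35.7 TPM), Ptgs2 (18.1 TPM) and Ptges (0.0402 TPM), with no overlap between neighbours. Lta4h moved above Ltc4s and Ptgs1 moved above Pla2g4a, and the ranks of Tbxas1, Hpgds, Ptgs2 and Ptges were the same in both strains.

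A list of 70 further genes of the pathway was taken from its known biochemistry, covering release and reacylation of arachidonic acid, other lipoxygenases, leukotriene and lipoxin metabolism, other prostaglandin synthases and metabolism, transport, and receptors. No read was found in any library for 26 of them, among them Ptgdr and Ptgdr2 (the receptors of prostaglandin D2), Tbxa2r (the thromboxane receptor) and Alox12. Of the 32 tested, 4 were higher and 2 lower in C57BL/6 BMMCs at an adjusted p under 0.05 and over 2-fold, where 7.73% and 5.54% of all genes tested were. At an adjusted p under 0.05 and any fold, 12 were higher, 9 were lower and 11 did not pass, where 27.0% of all genes tested were higher and 25.9% lower. The median log2 fold change of the 32 was 0.05.

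All 4 of the higher genes were expressed at a low level, and Cyp4f18, Ptgis and Ptgir had under 10 counts in at least 1 BALB/c library and so passed the filter through the C57BL/6 libraries. With 10 counts required in every library, only 1 gene was called higher, so the count of 4 rests on this filter. Cyp4f18, a cytochrome P450 that inactivates leukotriene B4, had 1, 4 and 3 reads in BALB/c and 188, 153 and 247 reads in C57BL/6 BMMCs (log2 fold change 6.19, SE 0.28, edgeR adjusted p = 2.43e-07). The prostacyclin pathway was represented by its synthase and its receptor. Ptgis, the synthase, had 6, 4 and 4 reads compared to 28, 26 and 33 reads (log2 fold change 2.67, SE 0.31, edgeR adjusted p = 0.000102). Ptgir, the receptor, had 13, 8 and 1 reads compared to 71, 46 and 95 reads (log2 fold change 3.28, SE 0.50, edgeR adjusted p = 0.000518). Both stayed under 1 TPM on average in either strain. Mgll, the monoacylglycerol lipase, which can free arachidonic acid from monoacylglycerols, had 87, 89 and 151 reads compared to 255, 271 and 381 reads (log2 fold change 1.55, SE 0.17, edgeR adjusted p = 5.97e-05).

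The lower genes were Alox8 and Pla2g12a. Alox8, a lipoxygenase that acts on another carbon of arachidonic acid than 5-lipoxygenase, was at 1.79, 2.62 and 1.73 CPM in BALB/c and at 0.501, 0.702 and 0.565 CPM in C57BL/6 BMMCs (log2 fold change -1.79, SE 0.26, edgeR adjusted p = 0.00035). It was the only other lipoxygenase with enough reads for a test. Pla2g12a, a secreted phospholipase A2, was at 2.61, 1.95 and 3.56 CPM compared to 1.22, 0.481 and 1.16 CPM (log2 fold change -1.48, SE 0.33, edgeR adjusted p = 0.00483).

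**Figure D3:**
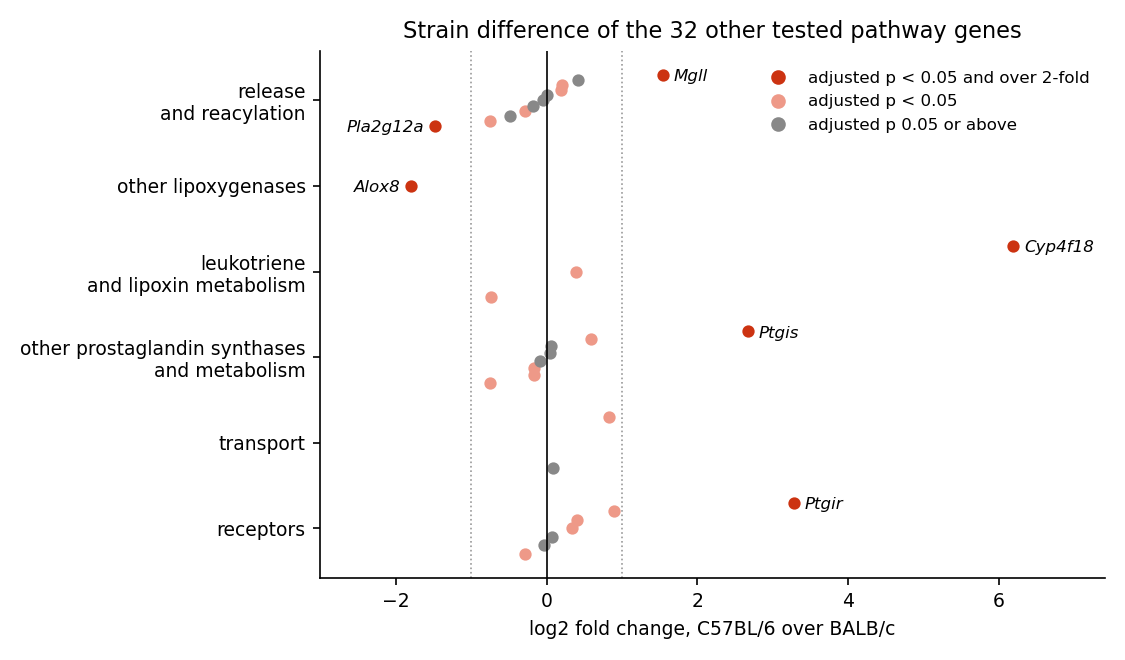
Log2 fold change, C57BL/6 over BALB/c, of the 32 tested pathway genes other than the 10 enzymes, by role, from edgeR's fit. Each point is a gene, and the named genes are the 4 higher and 2 lower genes at an adjusted p under 0.05 and over 2-fold, with the other 26 between the dotted lines that mark 2-fold changes.

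By mean TPM over all 6 libraries, the most abundant gene of each role differed by less than 2-fold, apart from Alox8. Abcc1, the transporter that exports leukotriene C4, was at 87.9, 79.5 and 83.8 CPM in BALB/c and at 148, 147 and 151 CPM in C57BL/6 BMMCs (log2 fold change 0.83, SE 0.04, edgeR adjusted p = 7.01e-07). Mboat7, which returns arachidonic acid to phosphatidylinositol, and Mgst3, a microsomal glutathione transferase, were higher in C57BL/6 with log2 fold changes of 0.19 and 0.39 (edgeR adjusted p = 0.00373 and 0.00711). Akr1b3, an aldose reductase, and Ptger3, a receptor of prostaglandin E2, did not pass the test, with 95% intervals of the log2 fold change of -0.05 to 0.13 and -0.02 to 0.15. With plain library sizes or in TPM, the Mboat7 call was lost (0.01 to 0.05 on the log2 scale) and Akr1b3 was called lower in C57BL/6 (-0.10 to -0.14). Ptger3 turned to between -0.08 and -0.12 without a call, Mgst3 fell to between 0.19 and 0.24 with adjusted p between 0.0448 and 0.0471, and Abcc1 was called higher at 0.63 to 0.68. In BALB/c alone, the mean of Lpcat2 (124 TPM), which reacylates lysophospholipids, was above that of Mboat7 (122 TPM). Likewise, the mean of Ptges3 (137 TPM), the cytosolic prostaglandin E2 synthase, was above that of Akr1b3 (136 TPM). In both pairs the ranges over the BALB/c libraries overlapped, and Mboat7 was above Lpcat2 in S9 and S10. Lpcat2 and Ptges3, named here after their values were seen, were lower in C57BL/6, with log2 fold changes of -0.75 and -0.16 (edgeR adjusted p = 1.7e-06 and 0.00679).

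Libraries held between 28273312 and 37100759 reads on genes, and the 10 enzymes took between 0.372% and 0.423% of them. The study checked the purity of the cultures by flow cytometry for c-Kit and the IgE receptor. In the libraries, the summed TPM of 10 mast cell genes was 35433 to 39366 in BALB/c and 34883 to 38151 in C57BL/6, with Kit between 471 and 546 TPM and Fcer1a between 5253 and 5619 TPM, while Hdc was at only 1.10 to 3.26 TPM. Of these 10 genes, 5 were called higher in C57BL/6 at an adjusted p under 0.05 (27.0% of all genes tested were), of which Kit and Fcer1a had a lower mean TPM in C57BL/6 than in BALB/c, with Tpsb2 (5.01-fold) and Hdc (2.29-fold) past both thresholds, and 2, Cma1 and Mitf, were called lower (-0.43 and -0.23 on the log2 scale), where 25.9% of all genes tested were. Of the markers of other cells, the summed TPM of 8 basophil genes was 515 to 529.8 in BALB/c and 639.9 to 668 in C57BL/6. Past both thresholds, 4 of the 8 (Mcpt8, Prss34, Ccl9 and Cebpa) were higher in C57BL/6, where 7.73% of all genes tested were. Of these, Prss34 (1, 8 and 2 reads in BALB/c), Ccl9 (5, 5 and 13 reads) and Cebpa (5, 3 and 2 reads) passed the filter through the C57BL/6 libraries, so nothing is read from the count. The list did not move as one, since Mcpt8 was at 178 TPM in BALB/c and 342 TPM in C57BL/6 and Ms4a3 was called higher (1.99-fold, edgeR adjusted p = 0.0024), while Il18r1 was called lower (-0.54 on the log2 scale, edgeR adjusted p = 0.00415) and Cd200r3 (339 and 286 TPM) and Itga2 did not pass the test. The summed TPM of 8 macrophage genes was 0.936 to 1.77 in BALB/c and 8.34 to 9.72 in C57BL/6, of which Cd68 was called higher in C57BL/6 and Adgre1, which passed the filter through the C57BL/6 libraries, had 16, 0 and 16 reads in BALB/c and 304, 268 and 365 reads in C57BL/6, while Csf1r, C1qa, C1qb and C1qc had no reads. Of 8 megakaryocyte or platelet genes, whose lineage is known for Ptgs1 and Tbxas1, the sum was 649 to 662 TPM in BALB/c and 714 to 790.4 TPM in C57BL/6, nearly all of it from Itga2b and Gp1ba. Of the 3 tested, Itga2b was higher (0.58 on the log2 scale, edgeR adjusted p = 2.88e-06), whereas Gp1ba was called lower (-0.33 on the log2 scale, edgeR adjusted p = 0.000846) and Gp1bb, which passed the filter through the BALB/c libraries, had 11, 30 and 26 reads in BALB/c and 1, 7 and 9 reads in C57BL/6. Ppbp, Gp9 and Treml1 had no reads and Pf4 had at most 2. Neutrophil and eosinophil genes summed to at most 0.263 and 0.493 TPM. The part of basophil or macrophage transcripts in the values of the enzymes was not tested.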

How the data were processed

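The authors prepared stranded mRNA libraries and estimated transcript levels with Salmon 0.8.2. The deposited tables give transcript lengths, estimated counts of reads (fractions occur) and TPM, the authors' length-corrected values scaled to a fixed total per library. The study's methods name Ensembl transcripts, whereas the tables list RefSeq accessions. Of 129698 transcripts, 106440 (82.1%) were matched to genes through a RefSeq table of GRCm38.p6, used for names and promoters, and 2.69% to 3.12% of reads per library lay on unmatched transcripts. Positions come from GENCODE's annotation of GRCm39.

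Counts were summed by gene, rounded and tested with edgeR 4.0.16 (R 4.3.3) on strain alone, with TMM and filterByExpr (minimum count 10). The SE is the fold change on the log2 scale over the root of F. The biological coefficient of variation was 0.0665. Counts of 12461 genes were simulated with the fit's own dispersions, and 200 of the genes were changed 4-fold. At an adjusted p under 0.05 and over 2-fold, the test recovered 194 and made 4 false calls. The simulation does not cover calls at any fold or smaller changes. No pair of libraries of a strain agreed within sampling noise. TPM served to compare genes, and ratios were tested by exact permutation (scipy 1.17.1). Alternatives used DESeq2 1.42.0, limma 3.58.1, other scalings and filters, curated transcripts only, a test against a 2-fold change, and each library left out.

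The 10 enzymes and the lists were chosen with earlier results of these data known. Named among the 70 pathway genes are those past both thresholds and the one of each role with the highest mean TPM over all 6 libraries. Lpcat2, Ptges3 and the examples without reads were named after their values were seen.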

Additional observations from a re-analysis of the deposited data

How the results depend on the processing

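No paired analysis was possible because the labels do not say which cultures of the strains, if any, were grown together. The 2 enzymes past both thresholds and the count of 0 lower ones held under all 19 alternatives, with Ptgs2 between 3.67 and 5.64 and Ptgs1 between 1.63 and 1.97 (log2). The scaling mattered for the small differences, Pla2g4a among them (0.20, 0.16 and 0.16, still called). With plain library sizes, on log2(TPM + 1) and on log2(TPM + 0.1), the median of all genes was -0.15, -0.15 and -0.18, Alox5 was -0.14, -0.18 and -0.18 and was called lower (1 enzyme called lower in each), Ltc4s was 0.10, 0.07 and 0.07 and Tbxas1 was 0.06, 0.02 and 0.02, neither of them called, whereas with curated transcripts only Tbxas1 was 0.34. Between 6 and 8 enzymes were called higher at an adjusted p under 0.05. Of the further pathway genes, 1 in place of 4 was called higher with at least 10 counts required in every library and on log2(TPM + 1), and 1 in place of 2 was called lower on log2(TPM + 1) and in the test against a 2-fold change. From read counts in place of TPM, the Hpgds share differed by 7.45 percentage points. Leaving out each library in turn changed no call of the 9 enzymes. Depth limits Ptges, Ptgis, Ptgir and Cyp4f18.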

Other observations

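Ptgs2 is known as an early-response gene, so 21 other early-response and inflammatory genes, chosen after the Ptgs2 values were seen, were read in the same fit. Their levels ranged widely in both strains without IgE stimulation. Mean TPM in BALB/c and in C57BL/6 was 1379 and 1767 for Egr1, and 993 and 472 for Fos. Nr4a3 was at 0.0827 and 0.490 TPM. In C57BL/6 BMMCs, 9 of the 21 were higher at an adjusted p under 0.05 and over 2-fold and 0 were lower past both thresholds, where 7.73% and 5.54% of all genes tested were. Cxcl2 and Nr4a3 (11, 9 and 5 reads in BALB/c) are among the 9 and passed the filter through the C57BL/6 libraries, so nothing is read from the count. Of the 9, Atf3, Egr2, Nr4a1 and Nr4a3 are early-response genes and the rest are inflammatory mediators. Atf3, a stress-induced transcription factor, had 262, 96 and 174 reads in BALB/c and 4170, 2955 and 3836 reads in C57BL/6 (log2 fold change 4.43, SE 0.22, edgeR adjusted p = 4.36e-07). The chemokine gene Ccl3 had 219, 145 and 138 reads compared to 2644, 1586 and 1821 reads (log2 fold change 3.66), and Il1b had 62, 105 and 68 reads compared to 898, 656 and 760 reads (log2 fold change 3.36). Cxcl2 had no reads in BALB/c and 74, 80 and 57 reads in C57BL/6. Ccl4, Nr4a3, Egr2, Nr4a1 and Tnf were the others past both thresholds, with log2 fold changes from 1.57 to 3.50. At an adjusted p under 0.05 and any fold, 14 of the 21 were higher (27.0% of all genes tested), and the median log2 fold change was 0.83 compared to -0.01 for all genes. All of the inflammatory mediators (Il1b, Il6, Tnf, Cxcl2, Ccl3 and Ccl4) are among the 14. The count and the median pool both classes and include Cxcl2 and Nr4a3, so nothing is read from them about early-response genes. Fos and Dusp1 were lower in C57BL/6 by -0.90 and -0.61 (edgeR adjusted p = 0.000641 and 0.0411), and 5 genes, Jun and Fosb among them, did not pass the test.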
